A study of Mus musculus with 2 samples.

Results

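Regulatory T cells of subcutaneous adipose tissue were compared with regulatory T cells of the spleen in single-cell RNA-seq libraries of sorted CD4+ T cells. A cell was taken as a regulatory T cell where it held at least 1 unique molecular identifier (UMI, a tag that marks 1 captured RNA molecule) of Foxp3 and at least 1 UMI of Trbc1 or Trbc2, the constant genes of the T cell receptor beta chain. The cell also had to show at least 500 genes, at least 1000 gene UMIs and under 10% mitochondrial UMIs. By this rule 399 cells were members, 195 from subcutaneous fat (SAT) and 204 from spleen (SPLN). They were part of 877 Foxp3-positive T cells among 12989 cells that passed the filters. Members were thus chosen by measured Foxp3, Trbc1 and Trbc2 UMIs and hashtag counts, so these values describe the choice and none was tested.

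All cells came from male wild-type C57BL/6J mice at 8 weeks of age, for which the labels name no treatment. Live cells, negative for the dye DAPI and positive for TCRb, CD3 and CD4, went through 2 rounds of sorting before they were loaded on the droplet 3′ v3 platform. Each of 2 libraries, called experiment 1 and experiment 2 here, pooled 8 hashed samples: duplicates of brown fat (BAT), SAT, visceral fat (VAT) and spleen, each marked with its own antibody hashtag. Samples 1 and 2 of each tissue belonged to experiment 1, and samples 3 and 4 to experiment 2. The labels call the duplicates biological, but do not say whether each was 1 mouse or a pool, and they do not name the fat pad. Fat was broken up mechanically and digested with collagenase II, whereas spleen was broken up mechanically only, and both went through lysis of red cells and a filter, so digestion and tissue cannot be told apart in any SAT against SPLN comparison.

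Foxp3 encodes the transcription factor that defines regulatory T cells, the CD4+ cells that restrain other lymphocytes. Those in lymphoid organs are largely recirculating cells, whereas those in fat, studied mostly in visceral fat, are known for an activated state, the IL-33 receptor ST2 (Il1rl1), GATA3, KLRG1 and the growth factor amphiregulin (Areg). CTLA-4, OX40 (Tnfrsf4), GITR (Tnfrsf18) and Helios (Ikzf2) are other proteins typical of these cells.

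The SAT samples held 34, 30, 53 and 78 Foxp3-positive cells, and the SPLN samples 35, 48, 64 and 57. Their summed counts ran from 260707 to 422682 UMIs per sample, with a median of 4587 to 6241 UMIs per SAT cell and 4604.5 to 6997 per SPLN cell. These depths were similar between the tissues. Foxp3-positive cells made up 10.8%, 9.26%, 6.25% and 7.91% of SAT T cells and 8.66%, 11.4%, 7.48% and 5.49% of SPLN T cells, and the ranges overlapped. Kept cells without a receptor beta UMI were set beside these shares. Whether such cells hold free RNA, or are sorted T cells whose receptor RNA was missed, was not tested. A Foxp3 UMI was found in 3.77% of 106 of them in experiment 1 (exact 95% interval 1.04 to 9.38%, median 4723.5 UMIs) and in 6.38% of 94 in experiment 2 (2.38 to 13.4%, median 2342.5 UMIs). The shares of 6 of the 8 samples, all but SAT 1 and SPLN 2, lay inside these intervals, so they are not read as frequencies of regulatory T cells. No Foxp3-positive SAT or SPLN barcode appeared in both libraries.

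The label was checked on genes that did not enter the rule. Ikzf2 was found in 14.5% of SAT T cells with no Foxp3 UMI, in 59.8% of the 82 cells with 1 Foxp3 UMI and in 94.7% of the 113 cells with 2 or more. In spleen the same shares were 8.42%, 60.2% (93 cells) and 70.3% (111 cells). Ctla4 followed the same order, with 12.2%, 43.9% and 75.2% in SAT and 4.33%, 37.6% and 53.2% in SPLN. Cells just inside the Foxp3 threshold thus carried these markers in a share between those outside and those well inside. How many of them held Foxp3 from free RNA was not tested. At the other threshold, hashtag ratios between 2 and 2.5 held 20 SAT and 6 SPLN members, and ratios between 1.5 and 2 held 34 SAT and 9 SPLN cells that were left out.

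The hashtag of SAT 1 was weak, with a median count of 4 per kept cell, so that 7 of its 34 cells stayed at a stricter ratio of 4. SPLN 1 held 4 cells above 20000 UMIs, SPLN 2 held 1, and the other spleen samples none. The largest cell of SPLN 1 made up 11.6% of its summed UMIs. SAT 1, 2 and 3 held 2, 2 and 3 such cells, and SAT 4 none, and the largest cell of SAT 1 made up 13.6% of its sum. The count of genes called below, 374, was 295 without SAT 1, 394 without SPLN 1 and 440 without the cells above 20000 UMIs.

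Raw UMIs were summed per sample and tested with edgeR's quasi-likelihood test, with experiment as a term and Benjamini-Hochberg adjustment over all genes tested. A gene is said to be called, or to have risen or fallen, at an adjusted p under 0.05. Levels are given as counts per 1000000 UMIs (CPM) scaled by edgeR's TMM factors, in the order SAT 1 to 4 and SPLN 1 to 4, and differences are SAT minus SPLN on the log2 scale with their standard error (SE). Of 4259 genes tested, 374 (8.78%) were called: 208 (4.88%) rose and 166 (3.9%) fell in SAT. At a fold of at least 2 there were 105 higher and 45 lower. A set of 54 genes known to respond to tissue digestion and handling was fixed as a list and kept apart; 26 of the called genes belonged to it, and 348 did not (183 higher and 165 lower). Within each experiment every SAT sample lay above every SPLN sample for 180 of the called genes and below for 155, against 9.04% and 9.11% of all genes tested. Over all 8 samples together, 5.78% of the genes tested lay higher in SAT without overlap and 5% lower. A sum over cells cannot tell fewer cells that express a gene from less RNA in each of them. The difference of the tissue effect between the experiments was called for 0 of 4259 genes by edgeR, with 185 at an unadjusted p under 0.05.

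Most adipose Treg genes that could be tested rose. Of 25 genes on that list 13 were tested, 10 were called higher and none lower in SAT, and the median log2 difference of the tested genes was 1.47 against −0.01 over all genes. The called genes were Klrg1, Ccr2, Cxcr6, Areg, Id2, Prdm1, Tnfrsf9, Rora, Tnfrsf1b and Gata3. Il1rl1, Maf and Batf were tested and not called. By DESeq2 4 of the list were called higher, Areg and Prdm1 had no adjusted p, and Id2, Rora, Tnfrsf1b and Tnfrsf9 were not called. The list also rose in T cells without a Foxp3 UMI from the same samples. There 16 of 17 tested were higher, against 20% of all genes, with a median of 1.92.

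Klrg1 encodes an inhibitory receptor for cadherins that marks terminally differentiated effector and tissue Treg cells. Its levels were 236, 306, 104 and 250 CPM in SAT and 45.5, 81.6, 50.6 and 23.6 CPM in SPLN. The lowest SAT sample lay above the highest SPLN sample, and the gene rose by 2.15 (SE 0.27, adjusted p = 8.6e-06). Ccr2, a receptor for inflammatory CC chemokines, was at 181, 284, 128 and 247 CPM in SAT and 82.4, 54.4, 37.9 and 15.7 CPM in SPLN. Its ranges did not overlap either, and it rose by 2.12 (SE 0.27, adjusted p = 1.1e-05).

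Gata3, the transcription factor that sustains ST2 expression, stood at 239, 222, 131 and 143 CPM in SAT and 145, 154, 72.7 and 62.8 CPM in SPLN. The groups overlapped over all samples but not within an experiment, and Gata3 rose by 0.78 (SE 0.17, adjusted p = 0.0036). Il1rl1 itself had 36.8, 94.8, 23.8 and 35.7 CPM in SAT and 45.5, 30.2, 9.48 and 0 CPM in SPLN. SPLN 1 was above 3 of the 4 SAT samples, and the difference of 1.14 (SE 0.41) was not called (adjusted p = 0.094). Pparg, the nuclear receptor known from visceral fat Treg cells, was too low to test, at 9.21, 10.9, 5.94 and 9.51 CPM in SAT and 8.52, 3.02, 0 and 0 CPM in SPLN.

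Areg, the ligand of the EGF receptor that supports repair, was at 70.6, 25.5, 56.5 and 68.9 CPM in SAT and 5.68, 33.2, 9.48 and 0 CPM in SPLN. These levels came from 78 UMIs in 16 of 195 SAT cells and 16 UMIs in 5 of 204 SPLN cells. In SAT 1 the top cell held 17 of 23 UMIs, in SAT 4 16 of 29 and in SPLN 2 10 of 11. SPLN 2 lay above SAT 2, and the rise of Areg was 2.14 (SE 0.49, adjusted p = 0.0057). Of the transcription factors on the list, Id2 rose by 1.75 (SE 0.30) and Rora by 1.18 (SE 0.33), and Prdm1 (Blimp-1) rose from 7.85 to 34.1 CPM in SPLN to 29.7 to 67.5 CPM in SAT.

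**Figure D1:**
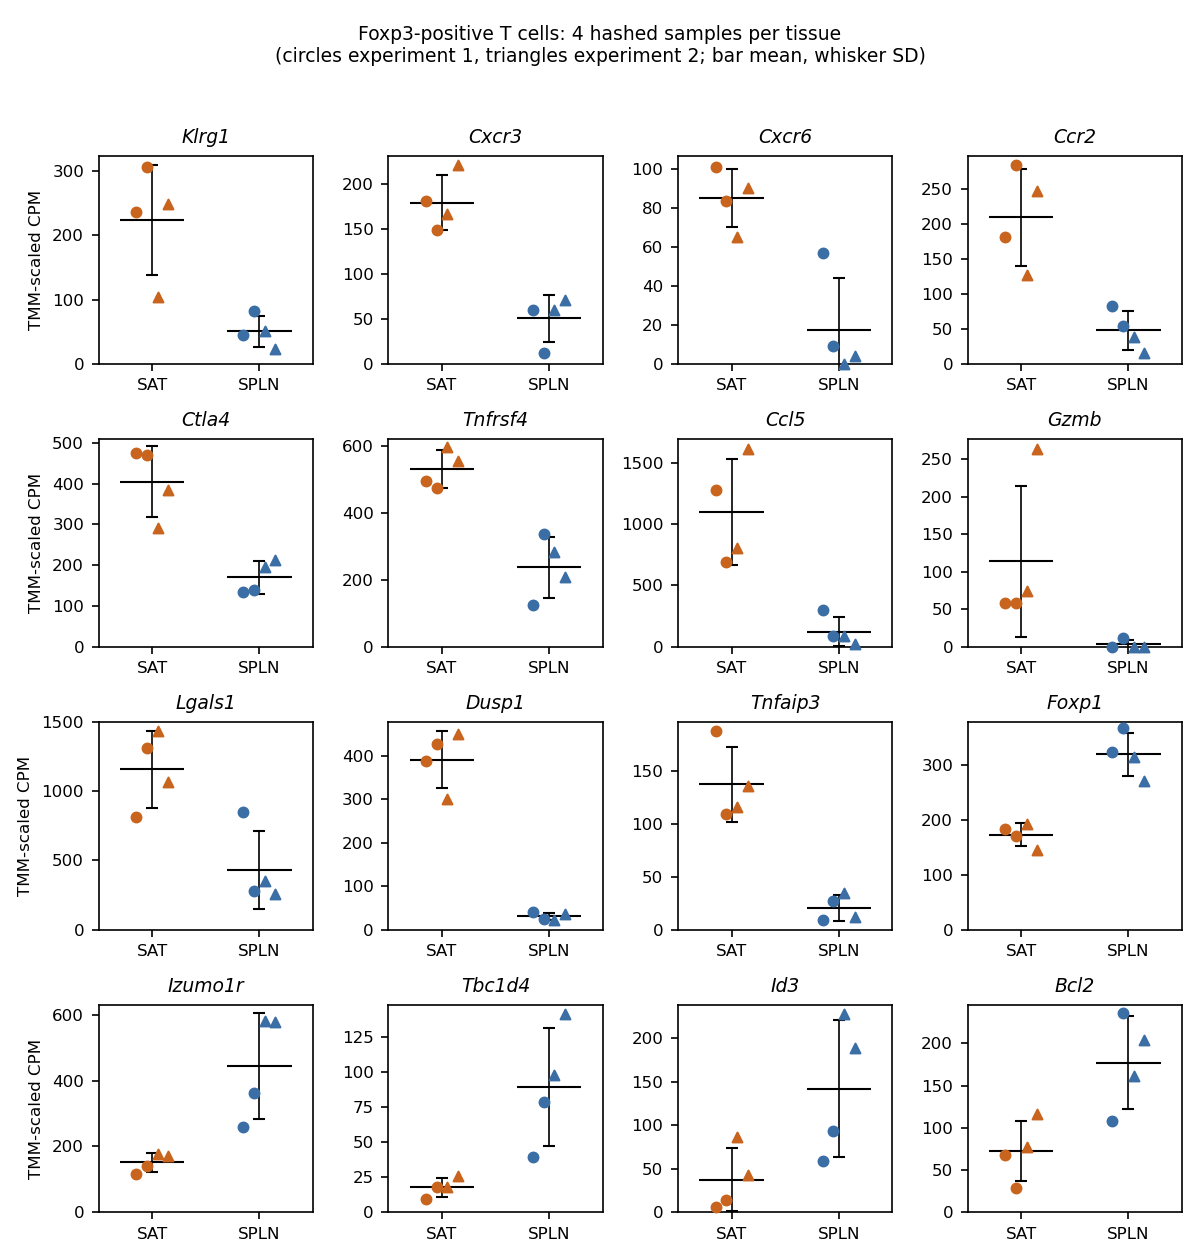
Levels of 16 genes in Foxp3-positive cells, in TMM-scaled CPM (y axis), for each SAT and SPLN sample. Circles are experiment 1 and triangles experiment 2, the bar is the mean and the whisker the SD (n = 4). Klrg1, Ccr2, Dusp1 and Gzmb lie higher in all SAT samples than in any SPLN sample, and Izumo1r, Foxp1 and Tbc1d4 lower.

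Genes of the core Treg programme split in direction. Of 15 tested genes on the core list 7 were called higher and 2 lower, with a median difference of 0.70. Ctla4, the receptor that strips CD80 and CD86 from antigen-presenting cells, was at 476, 470, 291 and 385 CPM in SAT against 134, 139, 196 and 212 CPM in SPLN. All 4 SAT samples were above all SPLN samples, and the rise was 1.26 (SE 0.18, adjusted p = 3.3e-05), with 1.77 in experiment 1 and 0.75 in experiment 2. Tnfrsf4 had 494, 474, 597 and 554 CPM in SAT and 125, 335, 281 and 208 CPM in SPLN, without overlap, a rise of 1.15 (SE 0.19, adjusted p = 1.9e-04).

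The other 5 that rose were Socs2 (1.12), Capg (1.06), Icos (0.87), Il2rb (0.77) and Tnfrsf18 (0.70). Ikzf2 was at 853, 780, 579 and 801 CPM in SAT and 364, 622, 702 and 507 CPM in SPLN, and its difference of 0.46 (SE 0.16) was not called (adjusted p = 0.080). Il2ra, the alpha chain of the IL-2 receptor (CD25), was at 76.7, 241, 110 and 109 CPM in SAT and 134, 224, 111 and 141 CPM in SPLN, and its difference of −0.20 (SE 0.25) was not called (adjusted p = 0.73).

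The pair that fell were Izumo1r (folate receptor 4) and Nt5e (CD73). Izumo1r, a surface protein high on natural Treg cells, was at 117, 142, 178 and 171 CPM in SAT and 259, 363, 582 and 577 CPM in SPLN. No SAT sample reached a SPLN sample, and it fell by 1.53 (SE 0.15, adjusted p = 3.5e-07). Nt5e, the ectoenzyme that makes adenosine from AMP, was at 15.3, 29.2, 11.9 and 16.6 CPM in SAT and 48.3, 75.5, 50.6 and 66.8 CPM in SPLN, again without overlap, and fell by 1.72 (SE 0.33, adjusted p = 0.0011). Entpd1 (CD39), the enzyme before it in that path, was higher in every SAT sample but its difference of 0.85 (SE 0.31) was not called (adjusted p = 0.094).

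Secreted products were among the largest differences. Of 8 tested genes of the list of secreted and suppressive products 6 rose (Gzmb, Ccl5, Lgals3, Areg, Fgl2 and Lgals1), none fell, and the median was 1.98. Gzmb, the serine protease granzyme B, lies on mm10 chr14:56258838-56262260 on the minus strand. It was at 58.3, 58.3, 74.3 and 264 CPM in SAT and at 0, 12.1, 0 and 0 CPM in SPLN. In counts this was 171 UMIs from 45 of 195 SAT cells against 4 UMIs from 3 of 204 SPLN cells. The fitted rise was 4.95 (SE 0.65, adjusted p = 1.7e-05), a size that depends on the near absence in spleen and ran from 3.21 to 8.86 over the alternatives.

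Ccl5, a chemokine that attracts T cells and monocytes, was at 1283, 693, 802 and 1617 CPM in SAT and 296, 84.6, 85.4 and 23.6 CPM in SPLN. It was found in 120 SAT and 36 SPLN cells, and rose by 3.16 (SE 0.35, adjusted p = 1.8e-06). Lgals1 (galectin-1) was at 810, 1316, 1438 and 1067 CPM in SAT and 847, 275, 348 and 255 CPM in SPLN. SPLN 1 lay above SAT 1, the rise was 1.44 (SE 0.25, adjusted p = 4.1e-04), and without SPLN 1 it was 2.01. Fgl2, a fibrinogen-like protein that Treg cells can secrete, rose by 1.83 (SE 0.35, adjusted p = 0.0012), from a range of 3.93 to 108 CPM in SPLN to 102 to 325 CPM in SAT. Il10 was too low to test, with 0 to 32.7 CPM in SAT and 2.84 to 7.85 CPM in SPLN. Of 10 listed secreted products tested in T cells without a Foxp3 UMI, 9 rose, with a median of 3.12.

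Th1-associated genes moved the same way: 6 of 8 tested rose (Ccl5, Nkg7, Tbx21, Ly6c2, Cxcr3 and Hopx) and none fell, with a median of 2.03. DESeq2 called 3 higher and not Nkg7, with no adjusted p for Tbx21 and Ly6c2. Tbx21, which encodes T-bet, had 46.0, 32.8, 35.7 and 49.9 CPM in SAT and 17.0, 0, 9.48 and 0 CPM in SPLN, and rose by 2.49 (SE 0.53, adjusted p = 0.0034). Cxcr3, the T-bet target that binds interferon-induced chemokines, was at 181, 149, 166 and 221 CPM in SAT and 59.7, 12.1, 60.1 and 70.7 CPM in SPLN, and rose by 1.85 (SE 0.26, adjusted p = 3.2e-05). Both genes were higher in every SAT sample than in any SPLN sample. Nkg7, a cytotoxic granule protein, was at 221, 153, 226 and 378 CPM in SAT and 111, 6.04, 15.8 and 0 CPM in SPLN. Its rise of 2.76 (SE 0.46, adjusted p = 2.9e-04) was 5.03 without SPLN 1. Interferon-stimulated genes showed no such pattern, with 0 of 17 tested called and a median of 0.14. In T cells without a Foxp3 UMI 14 of 14 tested Th1 genes rose, with a median of 2.90. Of 21 interferon-stimulated genes 10 rose there, with a median of 0.51.

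Among 17 tested genes of migration and adhesion 6 rose (Rgs2, Cxcr6, Cd69, Cxcr3, Cd44 and Rgs1), 1 fell (Gpr18), and the median was 0.67. Cxcr6, the receptor for CXCL16, was at 101, 83.8, 65.4 and 90.3 CPM in SAT and 56.8, 9.06, 0 and 3.93 CPM in SPLN. It rose by 2.25 (SE 0.45, adjusted p = 0.0017), and by 4.14 without SPLN 1. Cd69, which holds cells in tissue by pulling S1PR1 off the surface, was at 175, 204, 184 and 223 CPM in SAT and 71.0, 42.3, 37.9 and 31.4 CPM in SPLN, a rise of 2.08 (SE 0.22, adjusted p = 8.4e-07). Rgs2, a brake on G protein signals, rose by 3.43 (SE 0.30, adjusted p = 6.7e-08). Cd69, Rgs1 and Rgs2 are also induced within minutes to hours of activation, and the part of digestion in their rise was not tested. The integrins Itgal, Itga4, Itgb1, Itgb2, Itgb7 and Itgav were not called, with differences from −0.23 to 0.78.

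The S100, annexin and galectin group, genes of calcium-binding and membrane-linked proteins typical of activated T cells, rose almost as a whole. Of 15 genes 13 were called higher, none lower, and the median was 1.28. The 2 not called were Anxa5 (0.48) and Lgals9 (0.10). S100a11 had 853, 988, 826 and 858 CPM in SAT and 446, 420, 351 and 244 CPM in SPLN, far apart, and rose by 1.28 (SE 0.13, adjusted p = 5.4e-07). Anxa1, a mediator of resolution, was at 76.7, 91.1, 86.2 and 95.1 CPM in SAT and 17.0, 6.04, 6.32 and 3.93 CPM in SPLN, a rise of 3.27 (SE 0.35, adjusted p = 1.1e-06). S100a4 rose by 1.49 (SE 0.35, adjusted p = 0.0077), with SPLN 1 at 1168 CPM, above SAT 3 at 859 CPM, and was not called by DESeq2. In T cells without a Foxp3 UMI 14 of the 15 genes rose, with a median of 1.80.

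Calls among resting and recirculating genes were all lower in SAT. Of 18 genes, all tested, 6 (33.3%) fell (Treml2, Bach2, Bcl2, Foxp1, Il6ra and S1pr1), against 3.9% of all genes tested. None rose, 12 were not called, and the median was −0.65. DESeq2 called 2 of them lower and not Il6ra and S1pr1, with no adjusted p for Bach2 and Treml2. Foxp1, a factor that keeps T cells quiescent, was at 184, 171, 193 and 145 CPM in SAT and 324, 369, 316 and 271 CPM in SPLN. No sample crossed, and it fell by 0.89 (SE 0.14, adjusted p = 1.9e-04).

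Bcl2, the survival protein, was at 67.5, 29.2, 77.3 and 116 CPM in SAT and 108, 236, 161 and 204 CPM in SPLN, and fell by 1.25 (SE 0.26, adjusted p = 0.0027). Bach2, a repressor of effector genes, fell by 1.32 (SE 0.32, adjusted p = 0.0085), and S1pr1, the receptor for exit from tissue into lymph and blood, fell by 0.55 (SE 0.14, adjusted p = 0.015). Several well known members of this list were not called: Ccr7 differed by −0.32 (adjusted p = 0.41), Klf2 by −0.17 (0.61), Tcf7 by −0.73 (0.056), Lef1 by −0.56 (0.10) and Il7r by 0.20 (0.51).

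Outside the lists, the largest falls among the genes that passed the rule for naming were Mir142hg, Tbc1d4 and Id3. Mir142hg, the lincRNA that hosts the miR-142 hairpin on mm10 chr11:87755577-87757270 of the plus strand, was at 12.3, 29.2, 8.92 and 7.13 CPM in SAT and 96.6, 133, 63.2 and 74.6 CPM in SPLN. It fell by 2.70 (SE 0.32, adjusted p = 3.5e-06), and its level does not measure the mature miRNAs. Tbc1d4, a Rab GTPase-activating protein known from glucose transporter traffic, was at 9.21, 18.2, 17.8 and 26.2 CPM in SAT and 39.8, 78.5, 98.0 and 141 CPM in SPLN. It fell by 2.29 (SE 0.32, adjusted p = 3.2e-05), with no overlap.

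Id3, an inhibitor of E proteins that maintains resting Treg cells, was at 6.14, 14.6, 86.2 and 42.8 CPM in SAT and 59.7, 93.7, 228 and 189 CPM in SPLN. The tissues overlapped across experiments but not within one, and Id3 fell by 1.99 (SE 0.27, adjusted p = 2.6e-05) while its relative Id2 rose. Other falls were Nsg2 (−1.69), BE692007 (−1.68), Ift80 (−1.59), Clec2i (−1.45), Trib2 (−1.40), Rgs10 (−1.36), Evl (−1.36) and Ephx1 (−1.28). In all of these the highest SAT sample stayed below the lowest SPLN sample.

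Receptors for costimulation and inhibition moved in both directions, with 6 of 11 tested higher (Cd28, Icos, Tnfrsf4, Tnfrsf9, Tnfrsf18 and Ctla4) and 2 lower (Cd27 by 0.57 and Cd96 by 1.15, the latter not called by DESeq2). Of 16 tested cytokine receptors 3 rose (Ifngr1 by 1.15, Tnfrsf1b by 1.05 and Il2rb by 0.77) and 2 fell (Il27ra by 0.71 and Il6ra by 0.70), against 2 and 0 by DESeq2. In the NF-kB pathway 3 of 12 rose: Tnfaip3 (A20, 2.71), Nfkbid (1.77) and Traf1 (0.96), which are inhibitors or targets of the pathway, while the subunit genes Rel, Rela, Relb, Nfkb1 and Nfkb2 were not called, between −0.28 and 0.15. Tnfaip3 was at 187, 109, 116 and 136 CPM in SAT and 8.52, 27.2, 34.8 and 11.8 CPM in SPLN.

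Genes called in the metabolic lists were all higher in SAT. Of 12 tested glycolysis genes 25% were called, against 8.78% of all genes tested. Tpi1 (1.11), Gapdh (0.82) and Pkm (0.58, not called by DESeq2) rose, and the median was 0.26. Of 9 tested lipid genes 11.1% were called, near the share of all genes. Fabp5, a fatty acid-binding protein, rose by 1.54 (SE 0.37, adjusted p = 0.0089), and the list's median was −0.02 (0.02 when scaled by library size only). Of 10 tested cell cycle genes Mcm6 (1.71) and Hmgb2 (0.84) rose, and DESeq2 called 1. Top2a was not called (0.41, adjusted p = 0.80) with 179 CPM in SPLN 1, where 1 cell held 59 of the 69 Top2a UMIs of all SPLN samples.

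Cytosolic ribosomal protein genes, 81 tested, held 42 that fell and none that rose, with a median of −0.27. Scaled by library size only, 37 fell and the median was −0.22.

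**Figure D2:**
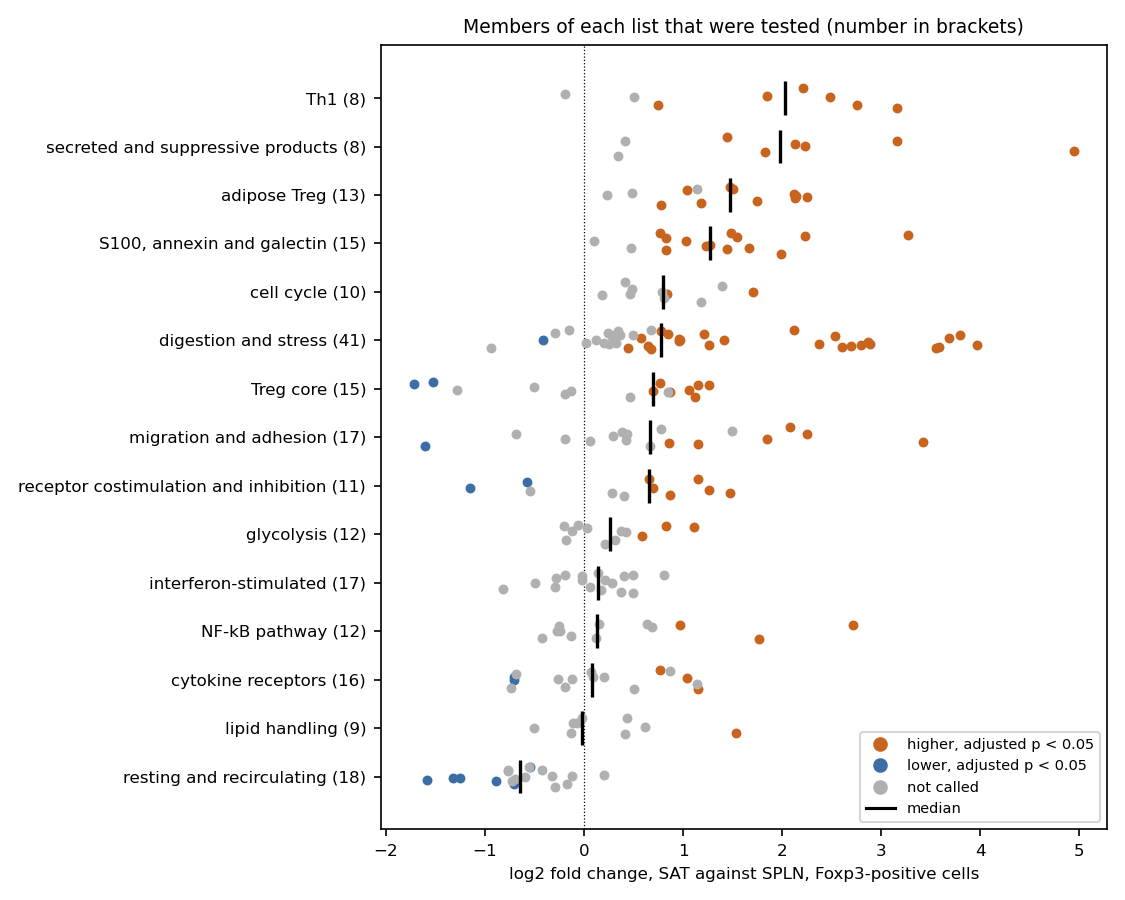
Log2 difference, SAT minus SPLN, of each tested gene (points) on the lists, with the list's median as a bar and colour for genes called higher or lower. The adipose Treg, secreted product, Th1 and S100 lists sit above 0 and the resting list below it, with medians of 1.47, 1.98, 2.03, 1.28 and −0.65.

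The digestion and stress genes were the other large block, and are given apart because fat alone was treated with collagenase. Of 54 genes 41 were tested, 25 rose and 1, Btg1, fell, with a median of 0.78. Dusp1, a phosphatase that ends MAP kinase signals (mm10 chr17:26505590-26562128, minus strand), was at 387, 426, 300.1 and 449 CPM in SAT and 39.8, 24.2, 22.1 and 35.3 CPM in SPLN. It rose by 3.68 (SE 0.21, adjusted p = 3.0e-11). The AP-1 gene Fos rose by 3.59 (SE 0.26) and Junb by 2.37 (SE 0.12, adjusted p = 6.0e-12), the latter from 244 to 359 CPM in SPLN to 1334 to 1563 CPM in SAT. The heat shock gene Hspa1a rose by 3.79 (SE 0.48).

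Summed over the list, these genes made up 20868, 17474, 17652 and 17138 CPM of SAT samples and 10727, 10984, 11418 and 11327 CPM of SPLN samples. Foxp3-zero T cells showed a similar step, from 9267 to 11058 CPM in SPLN to 14218 to 16638 CPM in SAT. With the list taken out of the sums before the fit, 346 genes were called, 188 higher and 158 lower. The part of digestion in the lists above was not tested.

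The promoters of 3 genes that rose are shown with matches to 3 motifs of factors that act in activated cells. Each is the 250 bases before the RefSeq transcription start (GRCm38.p6, minus strand of the given coordinates), 5′ to 3′, with matches in capitals: AP-1 as TGANTCA, the cAMP response element as TGACGTCA and NF-kB as GGG, any 2 bases and TTTCC, searched on both strands.
Gzmb, chr14:56262335-56262584: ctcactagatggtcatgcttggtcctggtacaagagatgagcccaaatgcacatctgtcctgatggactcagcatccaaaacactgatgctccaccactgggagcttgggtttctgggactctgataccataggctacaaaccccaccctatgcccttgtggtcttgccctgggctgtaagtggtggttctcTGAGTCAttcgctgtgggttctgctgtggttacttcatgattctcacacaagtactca
Dusp1, chr17:26508473-26508722: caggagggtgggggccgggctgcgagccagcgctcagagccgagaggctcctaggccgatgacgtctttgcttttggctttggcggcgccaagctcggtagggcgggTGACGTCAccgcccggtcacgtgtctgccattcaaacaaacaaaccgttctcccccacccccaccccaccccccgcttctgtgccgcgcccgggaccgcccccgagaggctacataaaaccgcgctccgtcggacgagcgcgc
Tnfaip3, chr10:19015411-19015660: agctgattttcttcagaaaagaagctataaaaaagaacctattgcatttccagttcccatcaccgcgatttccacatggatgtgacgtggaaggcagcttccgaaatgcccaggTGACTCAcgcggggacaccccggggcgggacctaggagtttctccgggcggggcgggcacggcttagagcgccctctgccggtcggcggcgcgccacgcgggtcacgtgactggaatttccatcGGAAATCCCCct
Gzmb has an AP-1 match that begins 58 bases before the start, Dusp1 a cAMP response element at 143 bases, and Tnfaip3 an AP-1 match at 136 and an NF-kB match at 12 bases. In windows of 300 bases, from 250 before to 50 after the start, the AP-1 letters occurred in 12.4% of the 161 genes called higher that matched a RefSeq symbol, in 7.46% of 134 called lower, in 5.42% of 3450 tested and in 8.97% of 27025 genes in the table. For NF-kB these shares were 6.21%, 3.73%, 1.91% and 1.89%, and for the cAMP response element 4.97%, 5.22%, 4% and 2.03%. The shares describe letters in these windows and not binding.

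Shares of cells were compared for 9 genes, with an exact two-sided permutation test within experiments that cannot go below p = 0.0556 with its 36 arrangements. Klrg1 was found in 61.8%, 56.7%, 28.3% and 34.6% of SAT cells and 20%, 12.5%, 9.38% and 3.51% of SPLN cells, or 45.3% ± 16.4 against 11.3% ± 6.87 (SD, n = 4 each, exact p = 0.0556). Cxcr3 was found in 51.2% ± 11.2 against 13.9% ± 6.39, Cxcr6 in 24.0% ± 3.10 against 4.34% ± 5.03, and Il1rl1 in 19.9% ± 12.2 against 6.11% ± 4.92, all at the same smallest exact p (n = 4 each, 0.0833 after adjustment over 9 genes). Klrg1, Cxcr3 and Cxcr6 did not overlap between tissues.

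Ccr7 was found in 24.4% ± 4.52 of SAT and 36.3% ± 3.88 of SPLN cells and Ikzf2 in 82.1% ± 10.8 and 65.6% ± 6.80 (n = 4 each, exact p = 0.111 for Ikzf2). In cells without a receptor beta UMI, taken as a background, Klrg1 was at 3.77% and 6.38% in the 2 libraries, Cxcr3 at 2.83% and 11.7%, Cxcr6 at 1.89% and 14.9%, Il1rl1 at 4.72% and 4.26%, and Ccr7 at 11.3% and 21.3%. Whether their UMIs came from free RNA or from sorted T cells whose receptor RNA was missed was not tested. In experiment 2 the SPLN shares of Klrg1, Cxcr3, Cxcr6 and Il1rl1 lay inside or below the exact intervals of that background. So did 8.97% for Il1rl1 and 23.1% for Cxcr6 in SAT 4. In SPLN 2, 8.33% for Il1rl1 and 4.17% for Cxcr6 lay inside the intervals of experiment 1. None of these is read as a share of expressing cells. The Ccr7 shares of SAT 1, 3 and 4 (17.6%, 26.4% and 26.9%) lay inside its background intervals and SPLN 3 at 31.3% just above (upper bound 30.9%), so no difference in Ccr7-expressing cells is read from them. With every cell thinned to 1500 UMIs (190 SAT and 204 SPLN cells), Klrg1 was found in 26.1% and 4.15% and Cxcr3 in 22.5% and 6.56%, without overlap and at the smallest exact p. Thinned Cxcr6 was found in 10.8% and 2.58% and overlapped (SAT from 6.58%, SPLN up to 8.57%, exact p = 0.111). Thinned Il1rl1, at 5.98% and 1.04%, and Ccr7, at 6.78% and 10.99%, each had an exact p of 0.278, and the Ccr7 difference changed sign in experiment 2.

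**Figure D3:**
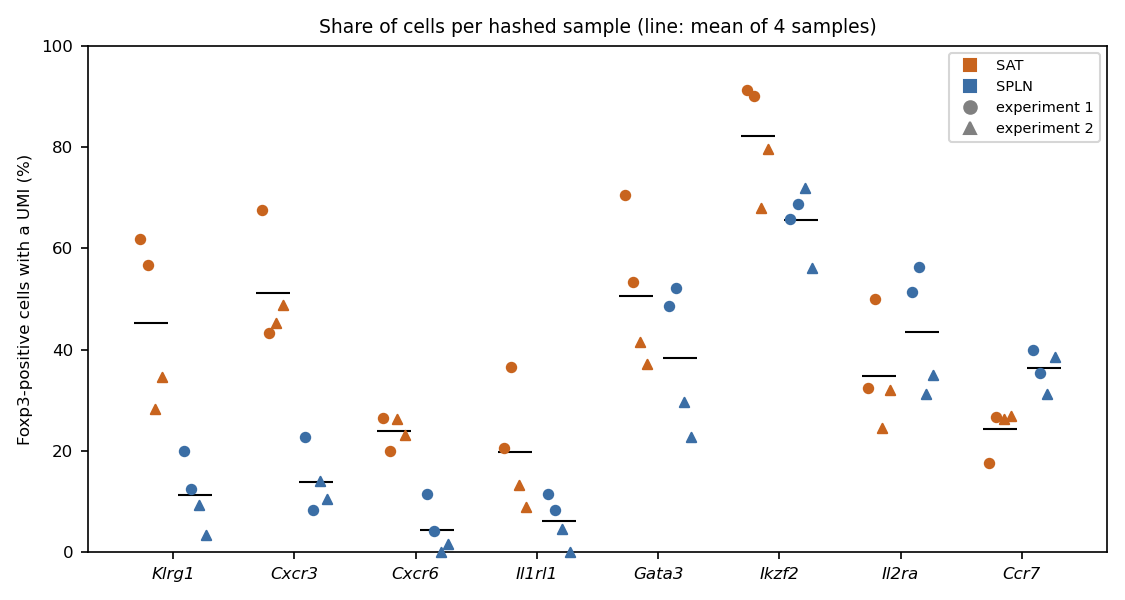
Percent of Foxp3-positive cells (y axis) with at least 1 UMI of each of 8 genes, one point per SAT or SPLN sample, with the mean as a line (n = 4). Klrg1, Cxcr3 and Cxcr6 are separate between tissues, while Gata3 and Il2ra overlap.

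Within single cells, Klrg1 and Cxcr3 were found together in 40 of 195 SAT cells, with Klrg1 alone in 40, Cxcr3 alone in 58 and neither in 57. In spleen both were found in 6 of 204 cells and neither in 162. Of the SAT cells with Il1rl1, 26 had Klrg1 and 6 did not, whereas 10 had Cxcr3 and 22 did not. At least 1 of Klrg1, Cxcr3, Cxcr6 and Il1rl1 was found in 150 of 195 SAT cells (88.2%, 83.3%, 67.9% and 75.6% by sample) and in 46 of 204 SPLN cells (40%, 18.8%, 21.9% and 15.8%). No SPLN sample reached the lowest SAT sample. In cells without a receptor beta UMI the same share was 10.4% in experiment 1 (exact 95% interval 5.30 to 17.8%) and 27.7% in experiment 2 (18.9 to 37.8%), so that SPLN 3 and SPLN 4 lay inside or below the background and all SAT samples above it. Cells with both members of a pair were deeper than cells with neither, for example 5324.5 against 4486 median UMIs for Klrg1 and Cxcr3 in SAT, and shared depth was not removed from these counts.

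The same tissue comparison was made in T cells without a Foxp3 UMI, 2278 from SAT and 2517 from SPLN, taken from the same samples. There 3726 of 10050 genes (37.1%) were called, 2012 (20%) higher and 1714 (17.1%) lower, in sums of many more cells. With library size in place of TMM as the only scaling, 2664 were higher and 1131 lower, and the median of all genes moved from −0.01 to 0.10. Of the 371 genes called in Foxp3-positive cells that were tested in both, 322 were called the same way in Foxp3-zero cells, 46 were not called and 3 (Nrip1, Rbl1 and Stim2, named after their values were seen) were called the other way. Genes called in both classes included Junb (2.37 and 2.57), Ccl5 (3.16 and 3.99) and Mir142hg (−2.70 and −2.80).

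In a fit of both classes with the hashed sample as a block, the difference of the tissue effect between the classes was called for 111 of 8706 genes (1.27%), 19 (0.218%) with a positive sign and 92 (1.06%) with a negative one (Foxp3-positive minus Foxp3-zero), among them 33 of the 374. Tbc1d4 fell by 2.29 in Foxp3-positive cells and differed by −0.21 in Foxp3-zero cells, an interaction of −2.02 (adjusted p = 6.9e-04). The interaction was −1.49 for Nt5e (adjusted p = 0.046), −1.18 for Bcl2 (0.019), whose difference in Foxp3-zero cells was 0.00, −1.12 for Clec2i (0.047) and −0.91 for Evl (0.046). Tent5a, a poly(A) polymerase, went the other way, with a rise of 2.06 in Foxp3-positive cells, 0.29 in Foxp3-zero cells and an interaction of 1.81 (adjusted p = 1.0e-04).

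Klrg1 went from a mean of 50.3 to 224 CPM in Foxp3-positive cells and from 1.94 to 45.5 CPM in Foxp3-zero cells, so that its interaction of −2.36 (adjusted p = 6.9e-04) stands beside a higher level in Foxp3-positive cells of both tissues. Il2rb (−2.19), Fgl2 (−3.19), Itgb1 (−2.47), Socs2 (−2.57), Lgals3 (−2.24) and S100a4 (−2.35) likewise rose less in Foxp3-positive cells or were not called there, and each was higher in Foxp3-positive than in Foxp3-zero cells of the spleen. Cxcr3 rose by 1.85 in Foxp3-positive and by 3.07 in Foxp3-zero cells, an interaction of −1.17 (adjusted p = 0.025). Satb1 (1.05), Lef1 (0.88) and Dapl1 (1.91), genes of naive cells, fell in Foxp3-zero cells by 1.41, 1.42 and 1.93 and were not called in Foxp3-positive cells. Without SAT 1, SPLN 3 or SPLN 4 the count of called interactions was 70, 58 or 71.

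**Figure D4:**
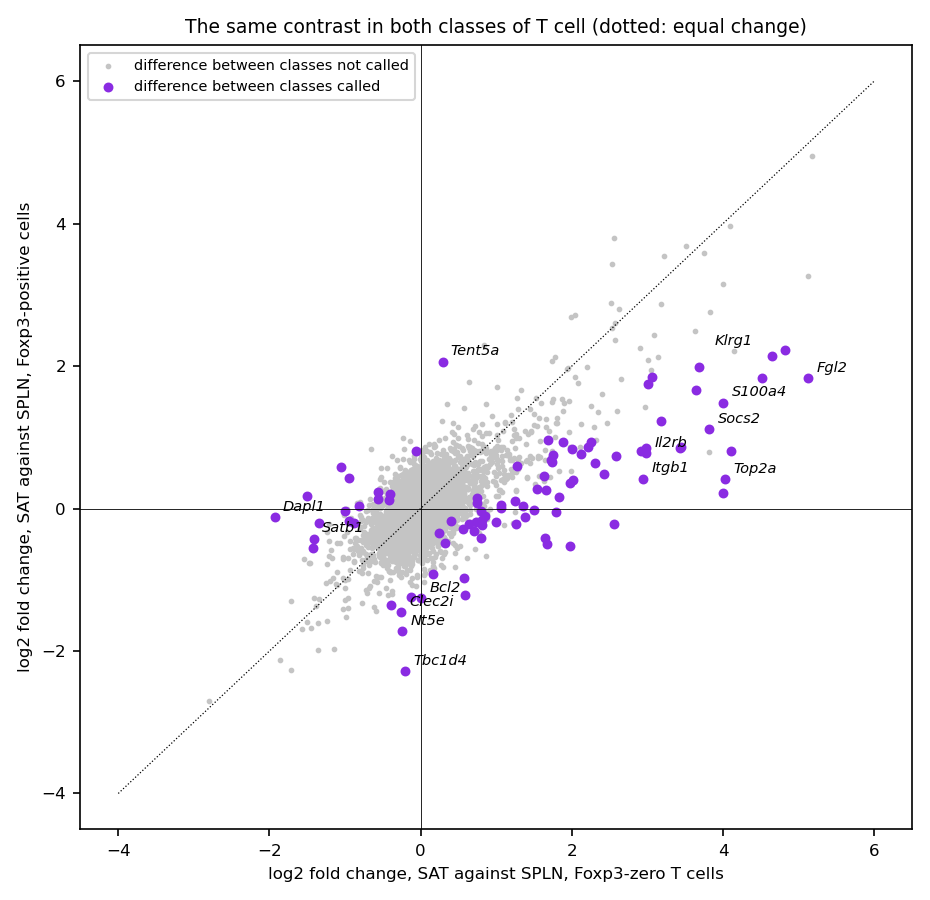
Log2 difference, SAT minus SPLN, in Foxp3-zero T cells (x axis) against Foxp3-positive cells (y axis), one point per gene tested in both classes, with called interactions in purple and the line of equal change dotted. Tbc1d4, Nt5e and Bcl2 lie near 0 on the x axis and below 0 on the y axis, and Tent5a lies well above the dotted line.

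Foxp3-positive cells of the other fat depots from the same libraries, 213 from VAT and 103 from BAT, were placed beside SAT in 1 fit of all 4 tissues. The comparisons with spleen share the 4 SPLN samples. Against SPLN, 410 of 4984 genes (8.23%) were called in SAT (4.94% higher and 3.29% lower), 615 (12.3%) in VAT (7.08% higher and 5.26% lower) and 60 (1.2%) in BAT (0.983% higher and 0.221% lower). Klrg1 was 2.16 above spleen in SAT, 2.23 in VAT and 0.46 in BAT, where it was not called. Izumo1r was −1.53, −1.51 and −1.02, and Mir142hg −2.71, −2.63 and −2.59, and each of these 3 depots was called for both genes. Dusp1 was 3.76, 4.09 and 3.01 above spleen, and Junb 2.39, 2.88 and 1.80.

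Between the fat depots themselves, 26 genes (0.522%) were called for SAT against VAT, 6 (0.12%) higher and 20 (0.401%) lower in SAT. Il1rl1 was lower in SAT than in VAT by −1.70 (SE 0.26, adjusted p = 4.0e-04), Areg by −1.63 (adjusted p = 0.024) and Cd74 by −2.34 (0.046). Klrg1 (−0.07), Ctla4 (−0.12) and Tbc1d4 (0.10) showed no called difference between these depots.

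For SAT against BAT, both digested with collagenase, 96 genes (1.93%) were called, 31 (0.622%) higher and 65 (1.3%) lower in SAT. One cell of 84820 UMIs made up 50.6% of BAT 3, and without the cells above 20000 UMIs the count was 160 of 4347 genes (3.68%), 73 (1.68%) higher and 87 (2%) lower. Klrg1 was higher in SAT by 1.69 (SE 0.28, adjusted p = 6.5e-04), Ccr2 by 1.65 (0.0024), Anxa1 by 1.89 (0.011) and Gzmb by 3.19 (0.034), and Foxp1 was lower by −0.73 (0.022) and S1pr1 by −0.93 (0.0017). Of the resting list 7 of 18 were lower in SAT than in BAT and none higher. Of the adipose Treg list 3 of 16 tested were higher and none lower.

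Of the 44 stress genes tested for SAT against BAT, 5 were higher in SAT and 4 lower, against 0.622% and 1.3% of all genes tested. Their median difference was 0.22. Fos differed by 0.14 between SAT and BAT and Dusp1 by 0.75, neither called, while Dusp5 was higher by 1.61 (adjusted p = 2.0e-04) and Hspa1a lower by −2.11 (2.0e-04). Without the large cells Dusp1 was called as well (0.88, adjusted p = 0.0092), as were Cxcr3 (1.00), Cxcr6 (1.88) and Ctla4 (1.05).

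**Figure D5:**
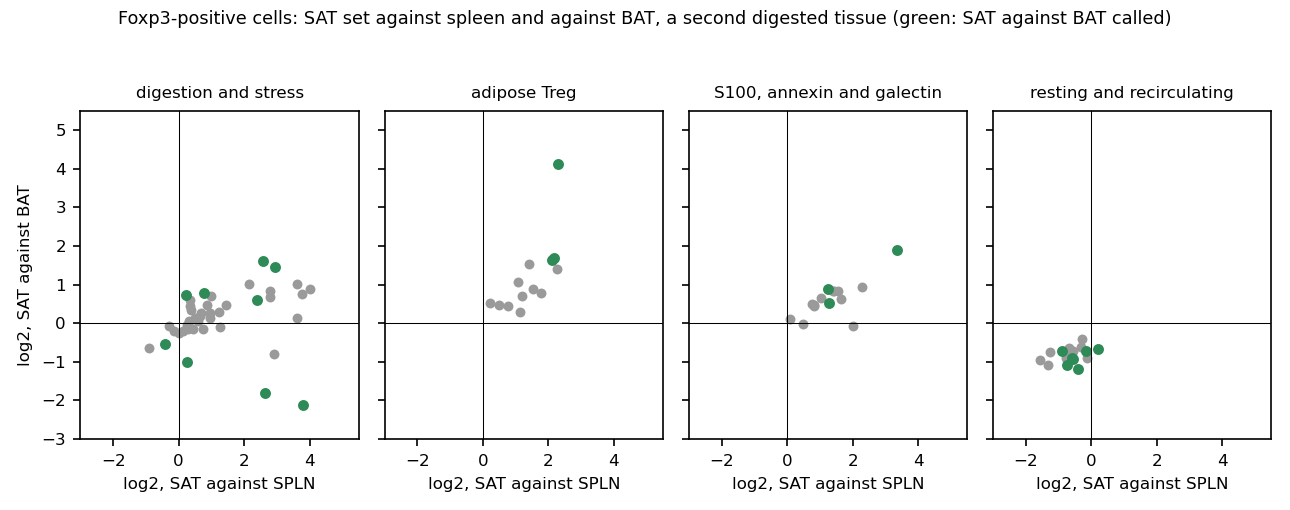
Log2 difference of SAT from SPLN (x axis) against that of SAT from BAT (y axis) for genes of 4 lists in Foxp3-positive cells, with green for genes called in SAT against BAT. Klrg1 and Ccr2 lie high on both axes and Foxp1 and S1pr1 low on both. Stress genes lie on both sides of 0 on the y axis, with Dusp5 above and Hspa1a below.

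Some calls were lost when 1 sample was left out, in fits with fewer samples. Leaving out SPLN 3 ended the call of Areg (2.01 without it) and Lck (−0.42), SPLN 2 those of S100a4 (1.21) and Cd27 (−0.49), SPLN 4 those of Fabp5 (1.38), Icos (0.75) and Btg1 (−0.36), SAT 1 that of Gpr18 (−1.36) and SAT 4 that of Bach2 (−1.12). The call of Cd96 ended without SAT 4 (−0.92) or SPLN 4 (−1.04), that of Prdm1 without SAT 4 (1.28), SPLN 2 (1.24) or SPLN 4 (1.33), and that of Tnfrsf9 without SAT 2 (1.29), SPLN 3 (1.29) or SPLN 4 (1.53). Mcm6 lost its call without SAT 2, SPLN 2 or SPLN 4 (1.36 to 1.63), and Cd3e without SAT 2, SAT 3 or SPLN 4 (−0.43 to −0.40). S1pr1 (−0.54 to −0.48) lost it without SAT 1, SAT 2, SPLN 1 or SPLN 4, Rora (0.91 to 1.17) without SAT 2, SAT 4, SPLN 3 or SPLN 4, and Tnfrsf1b (0.84 to 0.95) without SAT 2, SAT 4, SPLN 1 or SPLN 3. Il6ra (−0.72 to −0.64), Il27ra (−0.71 to −0.58), Pkm (0.45 to 0.58), Hmgb2 (0.63 to 0.91) and Trac (0.30 to 0.38) lost it in 5 or more of the 8 leave-outs. None of these genes changed sign.

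Markers of other cell types were read in the same sums. The 8 T cell markers summed to 4516 to 5204 CPM in SAT and 4583 to 5380 CPM in SPLN. Of them Lck (−0.47) and Cd3e (−0.45) fell and Trac (0.36) rose. The 8 B cell markers summed to 421 to 612 CPM in SAT and 450 to 767 CPM in SPLN; of the 2 tested, Cd74 was called (1.30). The 8 myeloid markers summed to 132 to 178 CPM in SAT and 96.6 to 129.6 CPM in SPLN, with Adgre1 at 0 in all 8 samples. The 7 fibroblast markers reached 33.3 CPM in SAT and 11.4 CPM in SPLN, with Pdgfra and Lum at 0, and the 6 adipocyte markers ran from 14.6 to 193 CPM in SAT and up to 18.1 CPM in SPLN, with Adipoq, Plin1, Cfd and Lep at 0. The 5 markers of NK cells and group 2 innate lymphoid cells reached 38.6 CPM in SAT and 8.52 CPM in SPLN. Their part in the results was not tested.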

How the data were processed

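Gene and hashtag UMI counts were deposited as 1 matrix per library. Per the submitters' processing notes, Cell Ranger 6.1.0 and mm10 were used, and no filter on cells is given in the sources used here. Each labelled hashtag's count plus 1 was divided by its median over kept cells, and the top hashtag was taken where its value was at least 2 times the second. This was the only treatment of doublets, and no doublet caller was run. The hashtag assignment was possible for 293 of 360 Foxp3-positive T cells in experiment 1 and 422 of 517 in experiment 2. The libraries held 29153747 and 43879975 gene UMIs over 4485 and 12239 barcodes, of which 3985 and 9004 were kept, and 9 kept barcodes were found in both.

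Raw UMIs were summed per hashed sample and class. The quasi-likelihood test of edgeR 4.0.16 (R 4.3.3) was used on genes that passed filterByExpr (minimum count 10), after TMM scaling. Foxp3, Trbc1, Trbc2 and mitochondrial genes were not tested. The common biological coefficient of variation was 0.12. Intervals of shares are exact (Clopper-Pearson, 95%) and cover counting error only. P-values measure the spread between these samples, whose animals are not described. Correlations of samples of the same tissue were 0.913 to 0.939 and of different tissues 0.854 to 0.909. The 2 samples of each tissue within an experiment differed by more than sampling noise (chi-square per degree of freedom 1.38 to 2.24). Other pairs were not checked in this way. On counts simulated for the SAT against SPLN comparison, 84.3% of 89 genes changed 2-fold and 100% of 89 changed 4-fold were recovered. Changed genes that failed the low-count filter were not counted. The counts were drawn from the fitted spread of each gene, with no difference between experiments, so recovery in the data may be lower. DESeq2 1.42.0, other cell filters and leaving out each sample were the alternatives.

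The members and lists were chosen with earlier results of these data known. Named genes were the 12 largest changes in each direction among called genes with a mean of at least 50 CPM whose tissues did not overlap within either experiment, up to 4 called members of each list and direction, 8 of the 9 genes of the shares (1 is not reported here) and the 5 largest called interactions of each sign with a mean of at least 50 CPM. Stress genes, receptor and immunoglobulin segments, and symbols that start with Gm and a number or end in Rik were left out of the first and last sets. A further 20 genes (Areg, Prdm1, Tnfrsf9, Rora, Bach2, S1pr1, S100a4, Anxa2, Jun, Hspa1a, Nr4a1, Tcf7, Lef1, Klf2, Il7r, Cd74, Lck, Cd3e, Trac and Entpd1) and the list members not called were named after their values were seen. Gene positions came from the GENCODE annotation of mm10, which matched 24523 of 25148 gene IDs with a UMI in the sums.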

Additional observations from a re-analysis of the deposited data

Results flagged for a closer look

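A sample stood apart from the other 3 of its tissue in 15 of 208 groups of 4 samples checked by Dixon's ratio, where chance gives about 1 in 20. For Gzmb, SAT 4 was at 264 CPM against 58.3 to 74.3 CPM in the other SAT samples, and SPLN 2 at 12.1 CPM against 0 CPM in the other SPLN samples. SPLN 1 was high for 5 genes: Nkg7 at 111 CPM (others 0 to 15.8), Ctla2a at 71.0 CPM (9.06 to 15.7), Cxcr6 at 56.8 CPM (0 to 9.06), Lgals1 at 847 CPM (255 to 348) and Top2a at 179 CPM (0 to 11.8). Without SPLN 1 the log2 differences of SAT from SPLN were 5.03 for Nkg7, 3.53 for Ctla2a, 4.14 for Cxcr6, 2.01 for Lgals1 and 3.31 for Top2a, which was then called (edgeR, adjusted p = 2.2e-04). Junb was at 359 CPM in SPLN 2 (others 244 to 261), Icos at 152 CPM in SPLN 3 (96.6 to 102) and Il6ra at 114 CPM in SPLN 4 (98.0 to 99.7). SAT 3 was high for Anxa2 at 223 CPM (94.8 to 117) and Top2a at 149 CPM (35.7 to 40.1). Vim was at 893 CPM in SAT 1 (1376 to 1411) and Fabp5 at 33.3 CPM in SAT 4 (89.0 to 91.1). The share of Foxp3-positive cells with Ccr7 was 17.6% in SAT 1 and 26.4 to 26.9% in the other SAT samples.

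The tissue difference differed between Foxp3-positive and Foxp3-zero cells, by the interaction term of edgeR, for the 10 genes listed here. They are the largest called interactions of each sign that the naming rule takes, so their number was fixed by the rule. Other named genes, among them Tbc1d4, Bcl2 and Cxcr3, also had a called interaction. The interaction was −2.36 for Klrg1, −3.19 for Fgl2, −2.57 for Socs2, −2.47 for Itgb1 and −3.46 for Top2a. It was 1.81 for Tent5a, 0.90 for Add3, 1.06 for Arl5c, 1.91 for Dapl1 and 1.05 for Satb1. The value for Top2a rests in part on SPLN 1, where 1 Foxp3-positive cell held most of the UMIs.

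The 7 hashtags that the labels give to no sample held 0.0165% of hashtag counts in experiment 1 and 0.0558% in experiment 2.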

How the results depend on the processing

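Of 374 genes called (208 higher and 166 lower), DESeq2 called 193 (120 and 73), at least 2 Foxp3 UMIs left 133 (89 and 44), cells thinned to 1500 UMIs 145 (79 and 66) and a hashtag ratio of 4 left 140 (107 and 33). Experiment 1 alone gave 89 (63 and 26) and experiment 2 alone 149 (113 and 36). Without the experiment term 224 were called (74 lower). The planned removal of cells with 2 UMIs of other lineages gave 51 (41 and 10) and left out 297 of 399 cells. Ighm was found in 68.2%, Cst3 in 47.1% and Pecam1 in 26.1% of the 399 cells, and without these 3 genes, chosen after seeing the data, the filter left out 54 cells and gave 309. Leaving out 1 sample gave 222 (without SPLN 4) to 394 (without SPLN 1) genes, 145 to 252 higher and 77 to 149 lower (96 without SAT 2). The Foxp3-zero count of 3726 was 1543 in thinned cells and 3096 to 3724 with a sample left out. The 111 interactions between classes became 33 in thinned cells, 51 at a hashtag ratio of 4 and 58 to 111 with a sample left out. The 0 interactions between experiments became 1 at a hashtag ratio of 4 and 40 without the filter on low counts. Thinning, the stricter cell rules and single experiments use fewer UMIs or samples, and the cause of the other changes was not tested.

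Of 81 named genes called by edgeR, 60 were called by DESeq2, 13 were not and 8 had no adjusted p there, and 22 lost the call when 1 sample was left out. A sign changed for S1pr1 (0.0188 with other-lineage cells left out). With the replicate number as a block 381 genes were called (213 higher and 168 lower), and samples of 1 number did not deviate together (correlations −0.0079 and 0.041), so the numbers were not taken as pairs. Depth limits the low genes: Pparg, Il10 and Ccr8 did not pass the filter on low counts.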
